A study of Arabidopsis thaliana with 8 samples.

Results

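The genes described here encode 3 SnRK2 protein kinases of the abscisic acid (ABA) pathway (SNRK2.2, SNRK2.3 and SNRK2.6) and 6 bZIP transcription factors of the ABF and ABI5 type (ABF1, ABF2, ABF3, ABF4, ABI5 and EEL). They were taken by locus name (AT3G50500, AT5G66880, AT4G33950, AT1G49720, AT1G45249, AT4G34000, AT3G19290, AT2G36270 and AT2G41070 in that order) and are 9 of the 24132 genes with a value in at least 1 library, and all 9 had a value in every library and passed the filter on low counts. RNA was sequenced from whole plants of Arabidopsis thaliana, accession Col-0, 3 weeks old. Wild-type plants (WT) were set against plants overexpressing VaWRKY14, a grapevine WRKY transcription factor (OE, a mixture of transgenic plants). Both were either watered normally or left without water for 5 days, which gives 4 groups of 2 libraries. The promoter of the transgene, the number of lines in the mixture and the number of plants per library are not given in the sources used here. One of the droughted OE libraries, the first, carries VaWRKY15 in its genotype field and VaWRKY14 in its title and source. Nothing in the labels says that replicates were grown separately, so p-values measure only the spread between these libraries, which may be technical.

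ABA is the hormone that signals water shortage in plants. Without it, PP2C phosphatases of clade A hold the SnRK2 kinases inactive; when PYR/PYL receptors bind ABA they capture the phosphatases, and the freed kinases phosphorylate ABF-type bZIP factors, which bind ABA-responsive elements in the promoters of target genes. Much of this control acts on the proteins, so the RNA level of a kinase or factor does not show its activity. In whole-plant RNA, fewer cells of a type and less RNA per cell cannot be told apart.

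The stretches of 250 bases before the annotated gene start are shown for the 4 genes that were called higher after drought over both genotypes. Capitals mark the core of the ABA-responsive element (ABRE, ACGTG) and the core of the W-box bound by WRKY factors (TTGAC), on either strand. The sequences are from the RefSeq annotation of TAIR10.1, read 5′ to 3′ on the strand of the gene.
ABI5, chr2:15207637-15207886, minus strand: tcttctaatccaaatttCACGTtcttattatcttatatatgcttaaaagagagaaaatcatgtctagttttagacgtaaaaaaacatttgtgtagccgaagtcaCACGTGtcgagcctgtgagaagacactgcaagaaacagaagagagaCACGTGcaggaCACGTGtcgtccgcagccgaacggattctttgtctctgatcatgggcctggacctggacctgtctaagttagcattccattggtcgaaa
ABF1, chr1:18399753-18400002, plus strand: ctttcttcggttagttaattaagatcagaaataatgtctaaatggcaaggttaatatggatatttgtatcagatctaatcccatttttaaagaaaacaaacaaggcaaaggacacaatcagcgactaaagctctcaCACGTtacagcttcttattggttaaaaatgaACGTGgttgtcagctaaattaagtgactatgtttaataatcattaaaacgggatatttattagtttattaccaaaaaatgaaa
ABF3, chr4:16295084-16295333, plus strand: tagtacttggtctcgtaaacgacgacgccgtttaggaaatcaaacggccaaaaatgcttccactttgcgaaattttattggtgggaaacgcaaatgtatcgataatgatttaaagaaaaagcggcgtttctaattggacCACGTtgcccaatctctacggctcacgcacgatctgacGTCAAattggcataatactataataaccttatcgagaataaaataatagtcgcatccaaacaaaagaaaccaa
SNRK2.6, chr4:16271495-16271744, plus strand: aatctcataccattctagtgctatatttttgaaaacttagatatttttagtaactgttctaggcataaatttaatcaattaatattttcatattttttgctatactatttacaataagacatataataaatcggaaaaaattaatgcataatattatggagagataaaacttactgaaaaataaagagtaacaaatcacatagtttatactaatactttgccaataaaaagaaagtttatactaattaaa
For EEL, the gene that was lower in OE plants, the 250 bases before the annotated start lie in the neighbouring gene AT2G41060, which overlaps EEL. A stretch of 30 bases with 3 of the 4 TTGAC matches of that window is shown instead, from position -201 to -172 before the start.
EEL, chr2:17129552-17129581, plus strand: TTGACctgcacatGTCAAgtttTTGACttg

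On both strands 6 motifs were looked for. These were the ABRE core, the G-box (CACGTG, which holds the ABRE core on each strand), the W-box core, its longer forms TTGACC and TTGACT, and the core of the dehydration-responsive element (CCGAC). Of the 27438 windows of this length before protein-coding genes, 22.9% hold the ABRE core, 6.49% the G-box and 44.9% the W-box core. The W-box form ending in C occurs in 12.2%, the form ending in T in 19.1% and the dehydration-responsive core in 12.0%.

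The ABI5 window holds 7 matches to the ABRE core, 6 of them from 3 copies of the G-box, and no W-box core. ABF1 has 2 ABRE cores, SNRK2.3 has 2 from a single G-box, and ABF3 and ABF4 have 1 ABRE core and 1 W-box core each. EEL has 4 W-box cores, of which 2 end in C and 1 in T, and no ABRE core. None of the motifs lies in the windows of SNRK2.2, SNRK2.6 and ABF2, and the dehydration-responsive core was found before ABF4 alone among the 9 genes. These matches describe letters in a window and say nothing about binding.

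The libraries held 9591274 to 11378571 expected counts. Values below are CPM (counts scaled to library sizes adjusted by the trimmed mean of M values, TMM) unless FPKM, the length-scaled values as deposited, is named. Tests are edgeR quasi-likelihood tests over 19259 genes with Benjamini-Hochberg adjustment, and a gene is called at an adjusted p under 0.05. Of the whole plant, leaf markers were high in every library, whereas 4 of 5 root markers (PIN2, TIP2;3, LRX1 and COBL9) were at 0.197 CPM or less in all libraries, below the 0.242 to 0.313 CPM that 3 counts represent. The other root marker, PYK10, was at 10.3 to 48.9 CPM and was called lower with drought over both genotypes (-1.35 ± 0.32, edgeR adjusted p = 0.0405). Seed markers summed to at most 0.411 CPM per library.

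The levels of the kinases were compared per transcript length. SNRK2.2, on chromosome 3 (TAIR10.1, 18741444 to 18744174), was the most abundant of the 9 genes in every group, with FPKM of 102 and 105 in watered WT, 137 and 127 in droughted WT, 122 and 107 in watered OE and 115 and 130 in droughted OE. SNRK2.3, on chromosome 5 (26710302 to 26712971), came second, with 46.5 to 76.1 FPKM per library. These kinases act largely together in seed germination and seedling growth. SNRK2.6 (OST1), on chromosome 4 (16271745 to 16274825), the kinase known for closing stomata, stood far lower, at 8.11 and 8.43 FPKM in watered WT, 13.7 and 14.5 in droughted WT, 9.90 and 12.9 in watered OE and 15.8 and 14.7 in droughted OE. It made up 5.03% of the summed FPKM of the 3 kinases in watered WT, 6.46% in droughted WT, 6.42% in watered OE and 7.70% in droughted OE. The order SNRK2.2, SNRK2.3, SNRK2.6 held in all 8 libraries.

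Among the bZIP factors, ABF1 had the highest mean FPKM in each group (22.4, 34.2, 20.9 and 31.4 in watered WT, droughted WT, watered OE and droughted OE) and ABI5 the lowest (1.67, 4.29, 1.17 and 3.31). ABF4 and ABF3 were next to ABF1, and over all 8 libraries the ranges of these 3 overlapped. Those ranges pool watered and droughted plants, so they hold more than the spread between replicates. Within groups, ABF1 overlapped with ABF4 in watered WT and with ABF3 in both OE groups. In droughted WT, ABF1 lay just above ABF4, at 33.6 and 34.8 against 25.7 and 33.3 FPKM. ABF2 averaged 13.2 FPKM over the libraries and EEL 7.31. ABI5 lay below every other gene in every group.

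**Figure D1:**
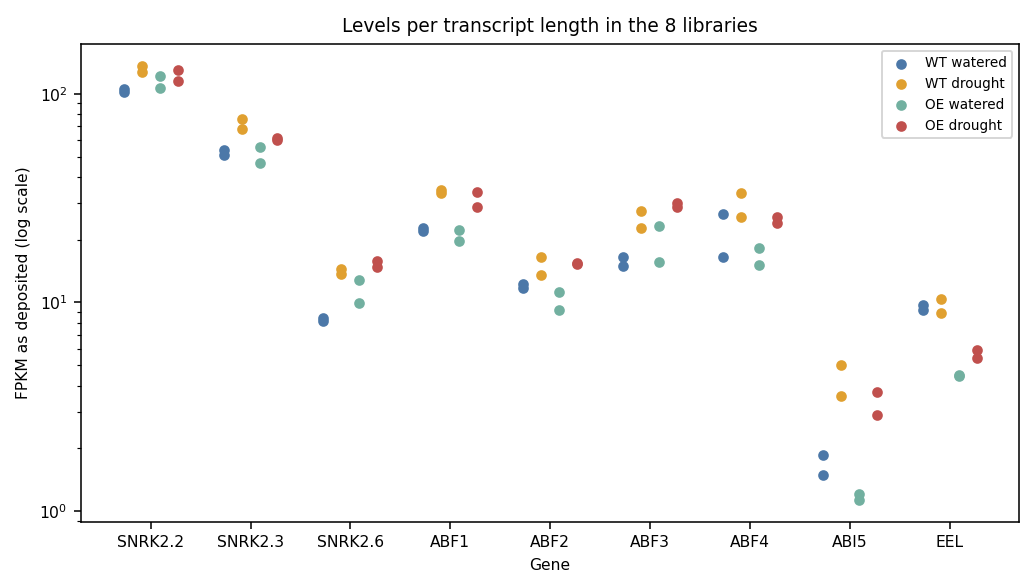
Deposited FPKM of the 9 genes (x axis) on a log scale (y axis), each point 1 library, coloured by group. SNRK2.2 lies between 102 and 137 in all libraries, and ABI5 between 1.13 and 5.00.

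How drought changed these genes was asked in WT, in OE and over the mean of both genotypes. In WT, 2 of the 9 were called higher (5.63% of all genes tested were), SNRK2.6 and ABI5, and 0 lower (7.37% of genes). In OE, 1 was called higher (6.77% of genes), ABI5, and 0 lower (9.92%). Over the mean of both genotypes 4 were called higher (12.3% of genes): ABI5, ABF1, ABF3 and SNRK2.6. By sign alone, 8 of the 9 were above 0 in WT, 7 in OE and 7 over both, against 52.6%, 52.4% and 54.2% of all genes. Watered and droughted libraries did not overlap for 6 of the 9 in WT and 7 in OE, against 54.6% and 61.2% of all genes, shares that are close to the background. These comparisons share their libraries with each other and are not independent.

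SNRK2.6 stood at 15.7 and 17.0 CPM in watered WT and at 23.5 and 23.7 in droughted WT. In OE it was at 26.5 and 22.1 CPM with water and 26.2 and 24.3 without. The WT groups did not overlap, and of the watered OE libraries the first lay above and the second just below the droughted WT libraries. It rose by 0.53 ± 0.13 on the log2 scale (SE, n = 2 per group) in WT, a 1.44-fold change (edgeR adjusted p = 0.0171). In OE the change was 0.06 ± 0.13 (edgeR adjusted p = 0.812), and over both genotypes 0.29 ± 0.09 (edgeR adjusted p = 0.0312). With DESeq2 neither was called (adjusted p = 0.0878 in WT and 0.182 over both), and the WT call was lost without the first watered or either droughted WT library (log2 change 0.47 to 0.52). Over both genotypes the call was lost in 6 of the 8 fits without 1 library (edgeR adjusted p up to 0.127). On deposited FPKM, both watered OE libraries lay below both libraries of each droughted group and above watered WT.

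SNRK2.2 stood at 177 and 188 CPM in watered WT, 208 and 182 in droughted WT, 220 and 206 in watered OE and 169 and 189 in droughted OE. Its WT groups overlapped, whereas in OE both droughted libraries were below both watered ones. Neither change was called, at 0.10 ± 0.12 in WT and -0.25 ± 0.12 in OE. SNRK2.3 stood at 82.6 and 82.1 CPM in watered WT, 92.0 and 97.5 in droughted WT, 87.4 and 79.8 in watered OE and 78.2 and 79.8 in droughted OE. Droughted WT was the highest group, and the other 3 lay close together. Its changes were 0.20 ± 0.11 in WT and -0.08 ± 0.11 in OE and were not called.

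The ABF factors are the main bZIP partners of these kinases in vegetative tissue, and ABF2, ABF3 and ABF4 are known to act together in drought tolerance. ABF1 (chromosome 1, 18400003 to 18402628) stood at 40.4 and 40.7 CPM in watered WT, 53.0 and 49.3 in droughted WT, 40.7 and 39.6 in watered OE and 43.1 and 51.0 in droughted OE. All 4 droughted libraries were above all 4 watered ones, as for 11.5% of the genes tested. The change was 0.34 ± 0.11 in WT and 0.23 ± 0.12 in OE, neither called, and ABF1 rose by 0.28 ± 0.08 over both (edgeR adjusted p = 0.0185).

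ABF3 (chromosome 4, 16295334 to 16298285) stood at 34.9 and 33.1 CPM in watered WT, 41.8 and 47.3 in droughted WT, 50.5 and 37.2 in watered OE and 52.2 and 50.3 in droughted OE. The WT groups did not overlap, while the first watered OE library was as high as the droughted ones. ABF3 rose by 0.31 ± 0.10 over both genotypes (edgeR adjusted p = 0.0281), with 0.39 ± 0.14 in WT and 0.22 ± 0.13 in OE not called. DESeq2 called neither ABF1 nor ABF3 over both genotypes (adjusted p = 0.0904 and 0.0936), and the calls were lost without any of 3 libraries for ABF1 and 5 for ABF3.

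ABF2 (chromosome 1, 17165125 to 17167924) stood at 21.6 and 23.8 CPM in watered WT, 22.9 and 26.3 in droughted WT, 21.6 and 19.2 in watered OE and 24.9 and 24.5 in droughted OE. The WT groups overlapped and the OE groups did not, and the change over both genotypes was 0.20 ± 0.09 (edgeR adjusted p = 0.127). ABF4 (chromosome 3, 6687042 to 6690123) differed between libraries of a group, with 49.3 and 32.6 CPM in watered WT and 40.9 and 51.5 in droughted WT. In OE it stood at 34.8 and 30.9 CPM with water and 35.8 and 42.8 without, which do not overlap. Its change over both genotypes was 0.22 ± 0.14 (edgeR adjusted p = 0.277), and without the first watered WT library it was called (0.38, edgeR adjusted p = 0.0172).

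ABI5 (chromosome 2, 15204659 to 15207636), the factor known for holding back germination and early seedling growth when ABA is present, showed the largest drought change of the 9. It stood at 2.83 and 3.66 CPM in watered WT and 6.29 and 8.01 in droughted WT. In OE it was at 2.37 and 2.605 CPM with water and 6.33 and 4.92 without. Every droughted library was above every watered one. ABI5 rose by 1.14 ± 0.25 in WT (2.21-fold, edgeR adjusted p = 0.00666) and by 1.17 ± 0.27 in OE (2.26-fold, edgeR adjusted p = 0.00726). Over both genotypes the rise was 1.16 ± 0.18 (edgeR adjusted p = 0.000273), and this call held with each library left out in turn. The counts behind it were 24 to 38 per watered library and 61 to 99 per droughted library. Leaving out the second droughted WT library ended the WT call (0.96, edgeR adjusted p = 0.0885) and the OE call ended without the first watered or first droughted OE library (1.10 and 0.99, edgeR adjusted p = 0.0540 and 0.0776).

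EEL (chromosome 2, 17129753 to 17132386), a relative of ABI5 known to oppose it at the seed gene EM1, did not follow ABI5. It stood at 11.02 and 12.4 CPM in watered WT and 10.4 and 10.9 in droughted WT, and at 5.92 and 6.15 in watered OE and 6.41 and 6.37 in droughted OE. The drought change was -0.13 ± 0.16 in WT (95% interval -0.48 to 0.21) and 0.08 ± 0.18 in OE (-0.31 to 0.47), neither called. The pairs of libraries within each genotype lay much closer together than the genotypes did.

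The size of the drought changes depends on the scaling. With total counts in place of TMM, the median change of all genes moved up by 0.25 in WT, 0.35 in OE and 0.30 over both, and the split of called genes went from 1085 higher and 1420 lower to 4062 and 729 in WT, and from 1303 and 1911 to 7500 and 696 in OE. Over both genotypes it went from 2369 and 2743 to 10016 and 1037. On that scale 6 of the 9 genes were called higher in WT, 5 in OE and 8 over both, EEL being the exception in the last. Of all 19259 genes tested, 4062, 7500 and 10016 were called higher on it. SNRK2.2 changed direction over both genotypes, from -0.07 to 0.22 (edgeR adjusted p = 0.0277), and so did SNRK2.2 and SNRK2.3 in OE, EEL in WT and EEL over both, none of them called on either scale. ABI5 stood at 1.39 in WT and 1.53 in OE without TMM, above the shift of the median. The 5 leaf markers, among the most abundant genes, summed to 50254 to 64310 CPM in watered WT and 18938 to 26464 in droughted WT, and to 64478 to 80329 and 24196 to 28018 in OE; their part in the scaling was not tested.

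**Figure D2:**
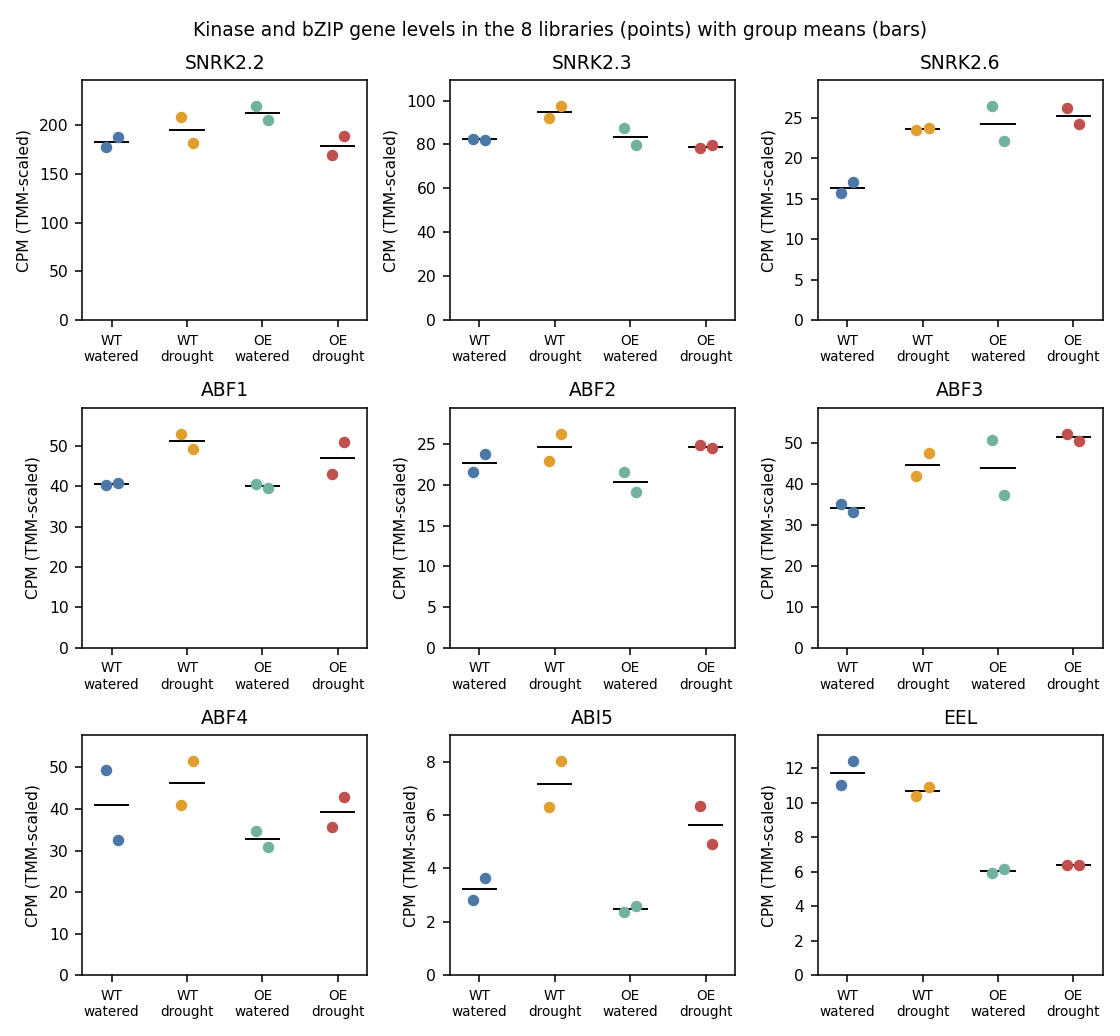
CPM (y axis, TMM-scaled, from 0) of each gene in the 8 libraries by group (x axis), with points for libraries and short lines for group means. ABI5 is higher in the droughted libraries of both genotypes, EEL is at 5.92 to 6.41 in OE against 10.4 to 12.4 in WT, and SNRK2.6 is lowest in watered WT.

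What overexpression changed was asked in watered plants, in droughted plants and over the mean of both conditions. In watered plants 1 of the 9 genes was called lower, EEL (0.0935% of all genes were), and 0 higher. In droughted plants 0 were called by edgeR (0.296% of genes in either direction), where 1771 genes had an unadjusted p under 0.05, and 0 by DESeq2. Over the mean of both conditions 1 was called lower, again EEL (0.0623% of genes). The watered and droughted comparisons share no library, but both enter the mean. For OE against WT, groups did not overlap for 5 of the 9 in watered and 4 in droughted plants, against 40.6% and 40.5% of all genes. Genes called split into 57 higher and 18 lower in watered plants (29 and 31 with total counts) and 31 and 26 in droughted plants (46 and 17). In watered plants the split also turned with 1 library left out, to 136 higher and 302 lower without the second watered WT library, 9 and 10 without the first, and 26 and 32 without the second watered OE library.

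EEL was lower in all 4 OE libraries than in all 4 WT libraries, a separation in that direction that 0.945% of the genes tested showed. In watered plants it fell by 0.96 ± 0.17 on the log2 scale (edgeR adjusted p = 0.0287), to 0.515 of the WT level. Under drought the difference was -0.74 ± 0.17 (edgeR adjusted p = 0.104), which was not called. Over both conditions EEL fell by 0.85 ± 0.12, to 0.556 of WT (edgeR adjusted p = 0.0075), and DESeq2 also called it (adjusted p = 0.0101). The call in watered plants was lost with DESeq2 (adjusted p = 0.0838), with the 4 watered libraries fitted alone (edgeR adjusted p = 0.1) and in 5 of the 8 fits without 1 library (edgeR adjusted p up to 0.158, reached without the first watered OE library). These 5 leave out the first watered WT, either droughted WT or either watered OE library. Over all 8 such fits the log2 change ran from -1.04 to -0.87. Over both conditions the second droughted WT library was needed for the call (-0.84 without it, edgeR adjusted p = 0.0760).

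EEL shares 817 bases with AT2G41060 on the same strand and 347 bases with a non-coding RNA (AT2G09215) that is not listed in the tables. The sources do not say if counting used the strand, and reads in the shared bases cannot be assigned with certainty. AT2G41060 itself stood at 0.03 ± 0.14 in watered and 0.12 ± 0.13 in droughted OE against WT, neither called. The transcript length used per library for EEL was 1135 to 1323 bases, and on deposited FPKM EEL was also lower in OE (-1.003 in watered plants with limma, adjusted p = 0.0263).

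SNRK2.6 was 1.48-fold higher in watered OE than in watered WT plants, at 0.57 ± 0.14 (95% interval 0.28 to 0.86), but did not pass the test (edgeR adjusted p = 0.097). Its watered OE libraries did not overlap with those of WT, which held in that direction for 21.7% of genes. In droughted plants the difference was 0.10 ± 0.13 (95% interval -0.18 to 0.37). ABF3 stood at 0.37 ± 0.14 in watered and 0.20 ± 0.13 in droughted OE against WT, and ABF4 at -0.32 ± 0.20 and -0.24 ± 0.19, none called. ABI5 was at -0.38 ± 0.29 and -0.35 ± 0.23. The remaining members were SNRK2.2 at 0.22 and -0.12, SNRK2.3 at 0.02 and -0.26, ABF1 at -0.01 and -0.12 and ABF2 at -0.15 and 0.00 in watered and droughted plants. For ABF1 the 95% intervals ran from -0.26 to 0.23 and from -0.36 to 0.12.

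Whether the drought response itself differed between OE and WT plants was tested as the difference of the drought changes. No member was called by edgeR (0.161% of genes were), where 2407 genes had an unadjusted p under 0.05; DESeq2 called 0 as well. The nearest was SNRK2.6, whose change was smaller in OE by 0.47 ± 0.19 (edgeR unadjusted p = 0.0231, adjusted p = 0.314). SNRK2.2 and SNRK2.3 differed by -0.34 ± 0.17 and -0.29 ± 0.15 (edgeR adjusted p = 0.426 and 0.456). For ABI5 the difference was 0.03 ± 0.36 (95% interval -0.73 to 0.79), an interval that leaves room for a sizeable difference either way. With total counts the called genes of this comparison split 58 higher and 9 lower against 19 and 12 with TMM.

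**Figure D3:**
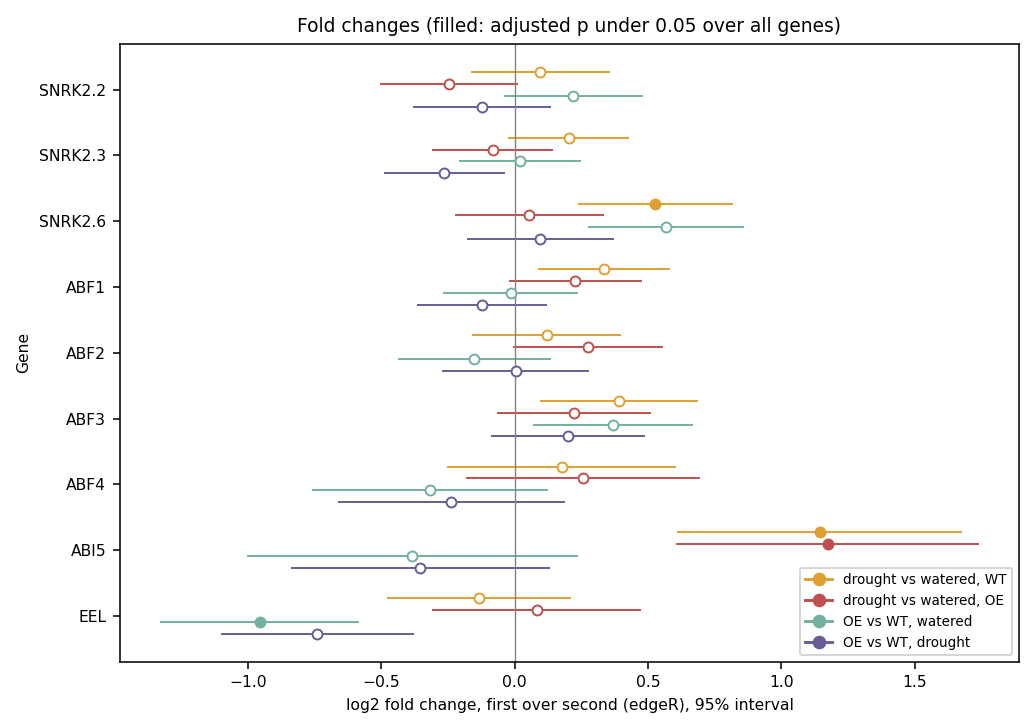
log2 fold change (x axis, first group over second) with 95% intervals for each gene (y axis) in 4 comparisons, coloured; filled points have an adjusted p under 0.05. ABI5 is filled in both drought comparisons, SNRK2.6 in WT drought and EEL in watered OE against WT.

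The other genes of the pathway were counted in lists. Upstream, of the 14 PYR/PYL receptors 8 were tested; in WT 2 rose and 0 fell with drought, where 5.63% of all genes rose and 7.37% fell. In OE 0 rose and 1 fell, where 6.77% rose and 9.92% fell. The median log2 change of the 8 was 0.28 in WT and -0.04 in OE, against 0.02 over all genes in both. PYR1 rose by 0.62 ± 0.13 in WT, from a mean of 48.7 to 74.8 CPM, and PYL9 by 0.88 ± 0.17, from 11.3 to 20.8. In OE the change of PYR1 was not called, and PYL5 fell by 1.43 ± 0.21, from 37.7 to 13.98 CPM (edgeR adjusted p = 0.0015). Its watered OE libraries stood apart, at 28.6 and 46.8 CPM. In WT PYL5 stood at 25.7 and 26.2 CPM with water and 21.2 and 24.1 without, which was not called. It was called lower over both genotypes (-0.81 ± 0.15, edgeR adjusted p = 0.00262). The difference between the genotypes was not called for PYR1 (edgeR adjusted p = 0.135) or PYL5 (0.131). Without the first droughted WT library the PYR1 call was lost (0.46, edgeR adjusted p = 0.0625).

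Of the 9 clade A PP2C genes, whose phosphatases keep the kinases inactive, 7 were tested and 3 rose in WT and 2 in OE with drought (5.63% and 6.77% of all genes rose), with medians of 0.44 and 0.28. HAI2 rose by 1.43 ± 0.30 in WT and 1.56 ± 0.29 in OE, and ABI2 by 0.56 ± 0.17 and 0.77 ± 0.16. The HAI2 call in WT was lost without the second watered WT library (edgeR adjusted p = 0.0531), and that of ABI2 without any of 5 libraries in WT and without the second watered OE library in OE. PP2CA rose by 0.95 ± 0.13 in WT drought and, in watered plants, was 0.76 ± 0.13 higher in OE than in WT, the only gene of the 7 pathway lists called for overexpression in watered plants. Leaving out the first watered WT or either watered OE library ended that call (0.63 to 0.76, edgeR adjusted p = 0.0576 to 0.149). It stood at 72.3 and 87.1 CPM in watered WT, 151 and 157 in droughted WT, 135 and 135 in watered OE and 161 and 135 in droughted OE. Watered WT was the lowest group, with no overlap with the other 3. Its drought response differed between genotypes by -0.82 ± 0.18, which was not called (edgeR adjusted p = 0.0695).

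Among the other 7 SnRK2 kinases, all tested, 1 rose in WT with drought and 0 in OE (5.63% and 6.77% of all genes rose), with medians of 0.09 and 0.08. That gene was SNRK2.7, at 1.60 and 3.23 CPM in watered and droughted WT (1.01 ± 0.32, edgeR adjusted p = 0.0499), and leaving out any library ended this call. Over both genotypes SNRK2.7 rose by 0.87 ± 0.22 (edgeR adjusted p = 0.0101), which held with each library left out in turn. Of the other group A bZIP genes 5 of 7 were tested, and 2 rose in WT and 1 in OE (5.63% and 6.77% of all genes), with medians of 0.16 and 0.11. FD, the bZIP partner of the flowering signal FT, rose by 1.39 ± 0.14 in WT, from 20.2 to 53.0 CPM, and by 0.87 ± 0.14 in OE, from 20.8 to 38.0. Its relative FDP rose by 1.35 ± 0.37 in WT from 0.968 to 2.47 CPM, a call that each of the 4 WT libraries was needed for. In OE it stood at 1.48 and 2.19 CPM with water and 3.37 and 3.23 without, and over both genotypes it rose by 1.10 ± 0.24 (edgeR adjusted p = 0.00371), which held with each library left out in turn. Beside these bZIP genes, the 8 flower markers summed to 21.0 to 27.1 CPM in watered WT, 35.9 to 40.8 in droughted WT, 6.02 to 22.6 in watered OE and 60.0 to 81.5 in droughted OE; their part in the result for FD was not tested. In the flower list 6 of 8 genes were called higher in OE drought (6.77% of all genes) and 0 in WT drought (5.63%). By sign all 8 were above 0 in both genotypes, with medians of 2.13 in OE and 0.69 in WT. The difference of the responses was called for 0 of 8 (0.161% of all genes).

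Of the 8 regulators of ABI5, 6 were tested and 0 rose in WT and 1 in OE with drought (5.63% and 6.77% of all genes), with medians of 0.40 and 0.52. The gene was AFP3, an ABI5-binding protein, which rose by 0.82 ± 0.22, a call lost without any of the 4 OE libraries. In WT AFP3 stood at 7.61 and 5.87 CPM with water and 5.40 and 4.94 without. Over both genotypes all 6 were above 0 (54.2% of all genes) and 2 were called higher (12.3%). These 2 were AFP1 and AFP4 (0.81 ± 0.27 and 0.82 ± 0.23, edgeR adjusted p = 0.0349 and 0.0185). For both, watered and droughted libraries overlapped. ABI3 and ABI4, the seed factors that work with ABI5, were at most at 0.104 CPM in any library. Downstream, of 13 genes known as ABF targets 7 had enough counts to be tested, with 1 higher in WT and 2 in OE drought and 0 lower (5.63% and 6.77% of all genes were higher). The median log2 change of the 7 was -0.14 in WT, 0.28 in OE and -0.14 over both genotypes, with 3, 4 and 3 of them above 0. The targets called were HAI2 in both genotypes and NYE1, which acts in chlorophyll breakdown, in OE. HAI2 is also a clade A PP2C gene and was already counted in that list, so the lists are not independent. The NYE1 change was 0.77 ± 0.19 (edgeR adjusted p = 0.0137), a call lost without the second watered or first droughted OE library. The dehydrin gene RAB18 was at 3.02 and 1.83 CPM in watered WT and 4.32 and 5.83 in droughted WT. In OE it stood at 3.16 and 5.73 CPM with water and 4.85 and 7.02 without, which overlap. It was called over the mean of both genotypes (0.75 ± 0.23) and in neither genotype alone, and that call was lost without any of 4 libraries. RD26, another target, went down but was not called. Its levels were 76.7 and 43.9 CPM in watered WT and 42.6 and 33.8 in droughted WT. In OE they were 69.0 and 48.6 CPM with water and 36.2 and 40.1 without. RD29B, EM1, EM6, TSPO, LEA7 and AT3G02480 were too low to test, at most 0.683 CPM in any library. Of 6 guard cell effectors, 1 was called lower in OE drought (9.92% of all genes) and 0 higher (6.77%), and 0 were called in WT. The gene was KAT1, an inward potassium channel, which fell by 0.48 ± 0.15 in OE. That call was lost without either watered or the second droughted OE library. In WT KAT1 stood at 29.8 and 26.8 CPM with water and 20.1 and 23.5 without. Over both genotypes it fell by 0.43 ± 0.11 (edgeR adjusted p = 0.00765).

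**Figure D4:**
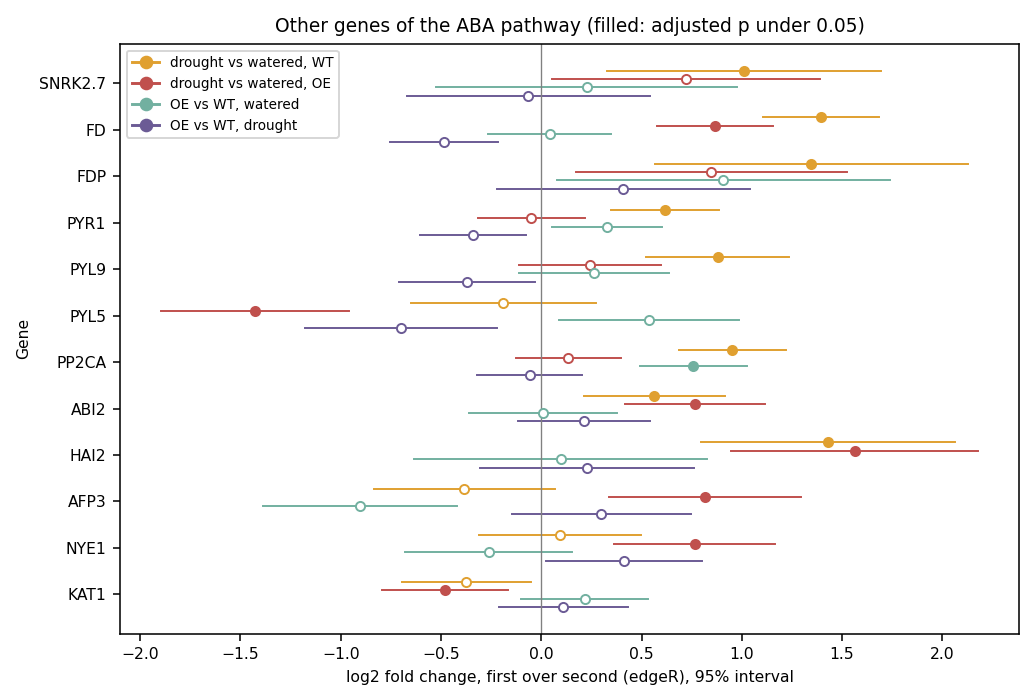
log2 fold change (x axis) with 95% intervals for the pathway genes called in at least 1 of 4 comparisons (y axis); filled points have an adjusted p under 0.05. HAI2, ABI2 and FD are filled in both drought comparisons, and PP2CA in WT drought and in watered OE against WT.

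SNRK2.6 is a guard cell kinase, and 6 guard cell markers were set beside it. They summed to 24.6 to 28.7 CPM in watered WT, 30.2 to 37.2 in droughted WT, 29.5 to 29.8 in watered OE and 30.5 to 37.0 in droughted OE. Watered WT was the lowest group for this sum as well. By mean, it was the lowest for FAMA and MPK12 but not for GORK, MYB60, HT1 or BLUS1. GORK stood at 8.58 and 6.83 CPM in watered WT and 9.18 and 5.83 in watered OE. MYB60 stood at 2.73 and 3.17 CPM in watered WT and lower, at 1.87 and 1.70, in droughted WT. Of the 6, 1 was called higher in WT drought (5.63% of all genes), GORK (0.72 ± 0.21), and 0 in OE drought (6.77%). By sign, 4 of the 6 were above 0 in WT and 2 in OE, with medians of 0.14 and -0.08. Over both genotypes GORK was called higher and MYB60 lower (12.3% and 14.2% of all genes). HT1 and BLUS1 were at 1.76 CPM or less in every library, and the part of these cells in the SNRK2.6 values was not tested.

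Genes with a profile over the 8 libraries most like that of a called member were sought among 15256 tested genes averaging 5 CPM or more, by the root mean square difference of centred log2 CPM. For EEL only 2 genes lay within 0.2, AT1G19396 (0.189) and SQE6 (0.199), followed by AT1G47530 (0.203). For ABI5 there were 7, led by AT5G66440 (0.145), AT1G59740 (0.158) and AT4G31405 (0.163). SNRK2.6 had 761, led by AT5G27930 (0.0657), AT1G04230 (0.0892) and CLV2 (0.0969). ABF3 had 1121, led by SPL7, NHX2 and HB-2, and ABF1 had 5407, led by AT3G03140, AT3G09980 and AT4G33980. Genes that vary little have many neighbours by this measure.

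Annotated neighbours overlap other members too. ABF1 shares 123 bases with AT1G49730 on the opposite strand, which fell by 0.54 ± 0.14 in WT drought. Over both genotypes AT1G49730 changed by -0.40 ± 0.10 (edgeR adjusted p = 0.00598) while ABF1 rose. SNRK2.3 shares 28 with AT5G66890, a gene with at most 3 counts per library. ABF3 shares 24 bases with DJ1C and ABF4 shares 6 with AT3G19300, both antisense. Antisense long non-coding RNAs over ABF1, ABF4 and SNRK2.3 are annotated but not listed in the tables.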

How the data were processed

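For each library the authors deposited a table of unnormalized expected counts, FPKM values and lengths by gene (per the file headers). Tools named in the submitters' processing notes are featureCounts, edgeR, STAR and HISAT2 2.0.5, on the TAIR10 build, in no stated role or order. Genes at 0 are not listed and were given 0. Symbols and positions came from TAIR10.1, whose nuclear chromosomes are as long as those of TAIR10, and 23929 IDs (99.2%) matched.

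Counts were rounded and tested in R 4.3.3 with edgeR 4.0.16 (filterByExpr with a minimum count of 10, TMM, robust quasi-likelihood, 1 mean per group, all 8 libraries, biological coefficient of variation 10.2%). Tests were two-sided and adjusted over all genes by the Benjamini-Hochberg method. Replicates differed by more than counting noise (chi-square per degree of freedom 5.69 to 9.90). Alternatives used DESeq2 1.42.0, limma 3.58.1 on log2(FPKM + 0.5) with a mean FPKM of at least 0.5, other scalings, no filter, a replicate block and leaving out each library. The scripts were tested on simulated data. Named were all 9 members, per pathway list and comparison of 2 groups up to 4 called genes with the smallest adjusted p, and the 3 most similar profiles per called member. Pathway genes called only over both genotypes were not all named: PYL7 and HAB1, both higher with drought, are not described. Genes such as RAB18, RD26, AFP1, AFP4, ABI3, GORK and the overlapping genes were named after their values were seen. The members and lists were chosen with earlier results of these data known.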

Additional observations from a re-analysis of the deposited data

How the results depend on the processing

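The groups share replicate numbers, but deviations of same-numbered libraries correlated at only -0.080 to 0.063, so no pairing by number was seen. These values cannot show whether same-numbered libraries were grown or handled together. With a replicate block the members called stayed at 1, 0, 2, 1, 0, 4 and 1 in the comparisons in the order of OE against WT watered, OE against WT drought, drought in WT, drought in OE, difference of responses, drought over both genotypes and OE over both conditions, and genes called were 75, 63, 2397, 3047, 44, 4879 and 40.

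Members called moved as follows. DESeq2 called 0 in watered OE against WT, 1 in WT drought and 1 over both genotypes. Over all genes it called 170, 1887 and 3489 in these comparisons, against 75, 2505 and 5112 with edgeR. Of these, 602 were higher in WT drought and 1179 over both genotypes, against 1085 and 2369 with edgeR. A fit of the compared libraries alone called 0 in watered OE against WT. Total counts called 6 in WT drought, 5 in OE drought and 8 over both genotypes, all higher. Of all 19259 genes, 4062, 7500 and 10016 were called higher there. With limma on FPKM the members called were also 6, 5 and 8, all higher, beside 3762, 6726 and 9565 of 19390 genes. SNRK2.2 over both genotypes turned from -0.07 to 0.22 with total counts and to 0.22 with limma on FPKM, which keeps the depositors' own scaling.

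Genes called in watered OE against WT were 170 with DESeq2, 166 without the filter, 33 with limma and 21 with the compared libraries alone, against 75. In droughted OE against WT they were 108 without the filter, 36 with limma and 233 with the compared libraries alone, against 57. WT drought gave 4791 with total counts and 4448 with limma against 2505, OE drought 8196 and 7391 against 3214, and both genotypes 11053 and 10574 against 5112. The difference of responses gave 67 with total counts, 150 with DESeq2 and 202 without the filter against 31, and 1 pathway gene was called without the filter and 2 with DESeq2. OE over both conditions gave 76 with DESeq2, 83 without the filter and 19 with limma against 31.

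Leaving out 1 library at a time, members called ranged from 0 to 1, 0 to 0, 0 to 3, 0 to 1, 0 to 0, 1 to 4 and 0 to 1 in the same order, and genes called from 16 to 438, 10 to 130, 1118 to 2578, 1456 to 3562, 2 to 326, 3567 to 4614 and 9 to 311. The cause of these moves was not tested. Each group holds 2 libraries, and ABI5 rests on the fewest counts of the 9 genes.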
